A study of Mus musculus with 4 samples.

Results

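Transcripts of p53, its regulators and its target genes other than Cdkn1a, the gene for p21, were examined in long-term haematopoietic stem cells (HSCs) of the mouse, which sustain blood formation. The set was 31 genes listed by symbol (Trp53, 3 regulators of p53 and 27 targets), and all 31 were found among 25206 probe sets, of which 23740 carried a gene name. Marrow cells that were lineage-negative, c-Kit-positive and Sca-positive received γ-irradiation of 0, 0.02, 0.1 or 0.5 Gy and were then given as a transplant to lethally irradiated mice. After 6 months the long-term HSC gate was sorted, which adds absence of Flk2, absence of CD48 and presence of CD150 to the 3 criteria above, and total RNA was hybridised to 1 array per dose. The 0 Gy cells went through the same transplantation into irradiated hosts, so every group shares that step. The labels name no mouse strain, age or donor marker and do not say whether RNA was pooled over recipients. There is thus no replicate of any dose: a difference from 0 Gy below is a difference between 2 arrays, it has no replicate check and no p-value, and the number of arrays limits the precision. In bulk RNA, fewer cells that express a gene and less RNA per cell cannot be told apart.

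The transcription factor p53 is held at a low level by Mdm2, which marks it for degradation, and by Mdm4, which masks its activation domain. DNA damage activates the kinases ATM, ATR, CHK1 and CHK2, which stabilise p53, and p53 then switches on genes that halt the cell cycle, repair DNA, limit oxidative stress or kill the cell, together with genes that feed back on p53 itself. In HSCs, p53 is known to support quiescence and to shape survival and competition after irradiation. The acute response to irradiation fades within hours to days, whereas the cells measured here were sorted months later.

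At 6 months, 10 of the 31 genes (32.3%) were at least 1.5-fold apart from the 0 Gy array at 1 or more doses, and 21 were under 1.5-fold apart at all 3 doses. At 1 or more doses, 18.3% of all named genes and 26.2% of named genes at or above the filter level were at least 1.5-fold apart. The set was chosen with earlier results of these data known, so its shares beside the background are a description and no independent test. The filter level is a log2 value of 4.07, the median of all named gene means over the 4 arrays, and 27 of the 31 had a mean at or above it, the other 4 being Zmat3, Fas, Eda2r and Ephx1. The 0.02 Gy array had 4 of 31 at least 1.5-fold higher (background 4.58% of all named genes) and 0 lower (4.29%). On the 0.1 Gy array 3 genes were higher (4.01%), as many were lower (4.97%), and the 0.5 Gy array likewise had 3 higher (4.36%) and 3 lower (5.4%). These shares are 12.9% higher at 0.02 Gy, and 9.68% in each direction at 0.1 and at 0.5 Gy. Among named genes at or above the filter level the background was larger, with 6.39%, 5.5% and 5.92% higher and 6.22%, 7.5% and 8.27% lower in the order of dose. The median log2 difference of the set was 0.02, 0.00 and 0.00 at 0.02, 0.1 and 0.5 Gy, and that of all named genes was 0.00 at each dose. The 3 comparisons share the 0 Gy array, so their counts are not independent. Set against the mean of the remaining 3 arrays instead, 7 genes were higher (background 3.99%) and 2 lower (2.49%) at 0.02 Gy. By the same control 0 genes were higher (2.67%) and 5 lower (3.55%) at 0.1 Gy, and 1 was higher (2.82%) and 2 lower (3.81%) at 0.5 Gy, so the counts rest in part on the single 0 Gy array.

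**Figure D1:**
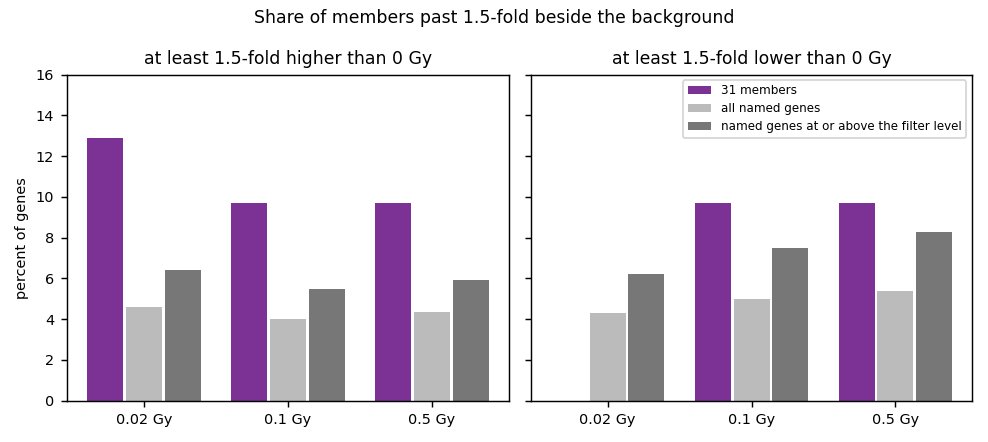
Percent of genes (y axis) at least 1.5-fold higher (left) or lower (right) than the 0 Gy array at each dose (x axis), for the 31 genes of the p53 set, all named genes and named genes at or above the filter level. At 0.02 Gy 12.9% of the set was higher and no gene of it was lower; each bar for the set counts at most 4 genes.

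Each gene was next tested singly over the 4 arrays with limma, and no test of the set as a whole was made. With the 3 irradiated arrays set against the 0 Gy array, 0 of the 31 passed an adjusted p of 0.05, where 209 of 23740 genes (0.88%) did. An unadjusted limma p under 0.05 was found for 2 of the 31 and for 2803 genes in all (11.8%). The lowest adjusted p in the set was that of Gadd45a, 0.162 by limma with Benjamini-Hochberg adjustment, with a log2 difference of 0.59 ± 0.079 (SE, 3 irradiated arrays against 1) and a higher value in 3 of 3 irradiated arrays. This fit takes differences between doses as error and assumes that the lone 0 Gy array varies like the irradiated ones. In 201 of the 209 genes called, the 3 irradiated values lay within 0.05 of each other. In a straight line over dose, 0 of the 31 and 0 of all named genes (0.0%) passed by limma, and 3233 of the latter (13.6%) had an unadjusted p under 0.05. In that fit 4 of the 31 had an unadjusted p under 0.05: Tnfrsf10b, Polk, Ercc5 and Trp53, with adjusted limma p-values of 0.218, 0.233, 0.26 and 0.26. The 0.5 Gy array stands far from the other doses and largely sets the slope of this line. In Polk and Trp53 the other arrays held the same value, and the 0.5 Gy array alone differed, by -0.14 and 0.11.

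**Figure D2:**
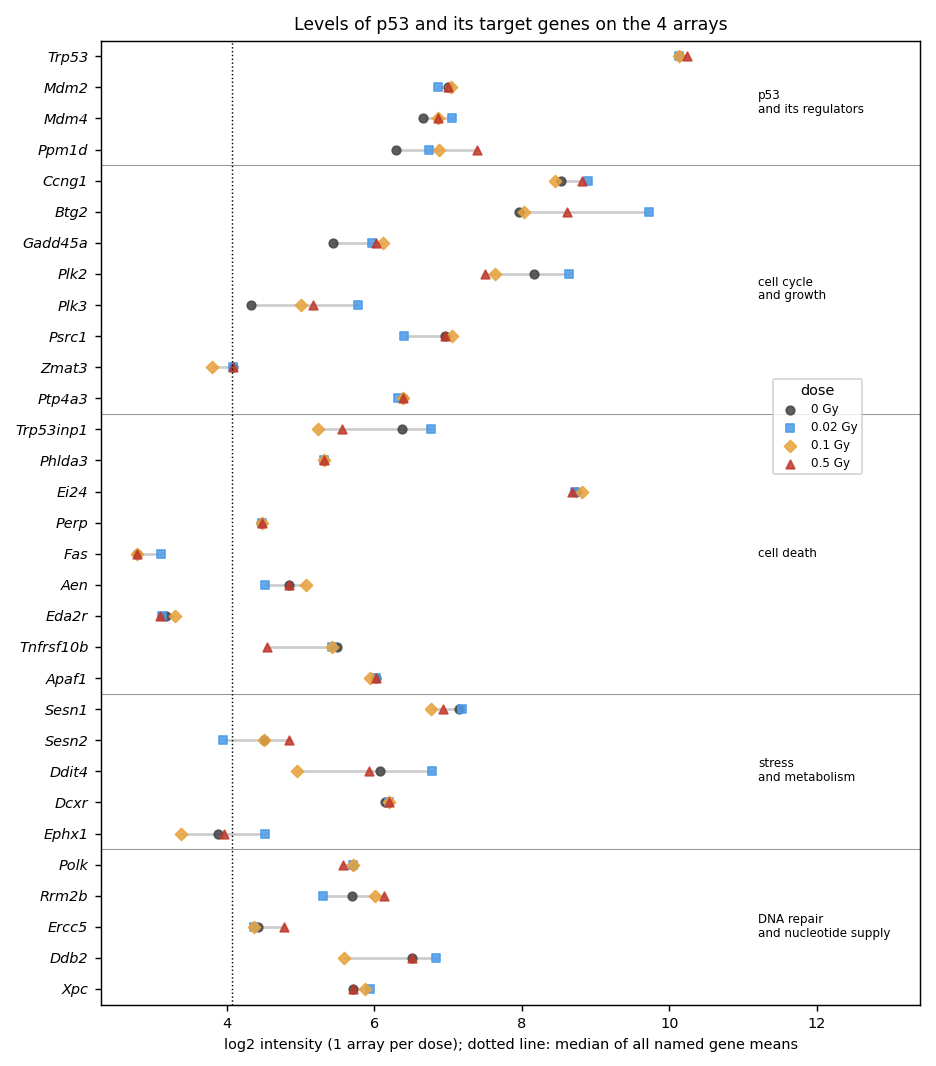
Deposited log2 intensity (x axis) of each of the 31 genes (rows, grouped by role) on the 4 arrays, 1 point per dose; the dotted line is the filter level of 4.07. Levels of different genes rest on different probes and are not comparable with each other; within a row, wide spreads are seen for Btg2, Plk3, Trp53inp1 and Ddit4, and near-identical points for Trp53, Phlda3 and Perp.

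Among p53 and its regulators, Ppm1d alone was 1.5-fold or more from 0 Gy at 1 or more doses (18.3% of all named genes). Trp53 (Entrez gene 22059), which encodes p53, had a log2 value of 10.13 at 0, 0.02 and 0.1 Gy and of 10.24 at 0.5 Gy. The first 3 arrays held the same value, and the 0.5 Gy array differed by 0.11. Mdm2 (17246), the ubiquitin ligase that degrades p53 and is itself a p53 target, had 7.0, 6.87, 7.05 and 7.0, with the 0.5 Gy value equal to that at 0 Gy. Mdm4 (17248), its partner and an inhibitor of p53 activity, had 6.66, 7.05, 6.86 and 6.86, so all 3 irradiated arrays were above 0 Gy, by 0.20 to 0.39.

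Ppm1d (53892) encodes the phosphatase WIP1, which dephosphorylates p53 and the kinases that activate it and so closes the damage response. Its log2 intensities in the order of dose, from 0 to 0.5 Gy, were 6.29, 6.74, 6.88 and 7.40. Each array was higher than the one at the next lower dose, and Ppm1d was the only gene of the 31 whose 4 values rose in the order of dose. Of the 31, 14 had 4 different values, and 0 fell in that order. Among 10119 named genes with 4 different values, 4.27% rose and 4.72% fell in the order of dose. The fold over 0 Gy was 1.36, 1.5 and 2.15, the value at 0.1 Gy lying just inside the 1.5-fold threshold (a log2 difference of 0.07 against the mean of the remaining 3 arrays), and 2.48% of named genes had a larger absolute difference at 0.5 Gy. In the line over dose, Ppm1d had a slope of 1.76 ± 0.52 log2 units per Gy (SE, 4 arrays), which rests largely on the 0.5 Gy array. Its adjusted p was 0.373 by limma.

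The sequences just upstream of the genes were set beside these values. Promoter windows were taken from RefSeq (GRCm38.p6), which gave a window for 23 of the 31 genes (28 windows, several genes having more than 1 start). Windows were not found for Zmat3, Ptp4a3, Trp53inp1, Perp, Tnfrsf10b, Rrm2b, Ddb2 and Xpc. The 250 bases before each start were searched on both strands, with no mismatch, for the 10-base p53 half-site consensus, the CArG box of serum response factor, the cyclic AMP response element TGACGTCA and the AP-1 element TGANTCA. These motifs were picked after the values had been seen, and a match is a description of letters, not of binding. The p53 half-site consensus was in 9 of the 28 windows and in 7.13% of all 32851 windows of this length. Only a single half-site was searched for, not a pair of them. The matches are each a complete copy of this consensus, read 5′ to 3′ on the gene's strand. They are shown because they are the only stretches of these windows that match the half-site in full:
Aen: GGGCTTGTCC
Ccng1: GGGCAAGCCT
Ei24: GGGCATGCCC
Gadd45a: GGGCTAGCCC
Mdm2: GAACTTGCCT
Polk: GAACTAGCCT
Ppm1d: GAGCTTGCTC
Sesn1: AAGCTTGTTT
Trp53: GGACTTGCCC

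Of the 7 windowed genes that were 1.5-fold or more from 0 Gy, 2 (Ppm1d and Gadd45a) had a half-site, and of the other 16 windowed genes 7 had one. The cyclic AMP response element was in 3 of the 28 windows, those of Btg2, Plk2 and Ppm1d, and in 1.55% of all windows. All 3 were among the 7 genes at least 1.5-fold from 0 Gy, and 0 of the other 16 held it. Since the motifs were picked with the values known, this split is no test of a link. The 7 also mix directions: Ppm1d and Btg2 passed 1.5-fold as higher genes, and Plk2 as a lower one at 0.5 Gy. Trp53inp1, Tnfrsf10b and Ddb2, which were lower at 1 or more doses, had no window and are not in this count. The AP-1 element was in 2 windows (Fas and Mdm4) and in 6.75% of all, and the CArG box in 0 and in 1.47% of all. No match in these windows overlapped another. The upstream stretches of Ppm1d, Btg2 and Plk3 are printed because these genes were 1.5-fold or more higher than 0 Gy at 2 or 3 doses. They lie at chr11:85311004-85311253 on the plus strand, chr1:134079156-134079405 on the minus strand and chr4:117133964-117134213 on the minus strand of GRCm38.p6, end at the base before the start, and carry in capitals the half-site and the cyclic AMP response element where present:
Ppm1d: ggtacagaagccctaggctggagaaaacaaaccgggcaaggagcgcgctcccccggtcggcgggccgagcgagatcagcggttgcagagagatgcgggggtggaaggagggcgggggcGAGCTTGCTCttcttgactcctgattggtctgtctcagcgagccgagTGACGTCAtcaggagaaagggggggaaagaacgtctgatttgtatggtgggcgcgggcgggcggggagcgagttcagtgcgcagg
Btg2: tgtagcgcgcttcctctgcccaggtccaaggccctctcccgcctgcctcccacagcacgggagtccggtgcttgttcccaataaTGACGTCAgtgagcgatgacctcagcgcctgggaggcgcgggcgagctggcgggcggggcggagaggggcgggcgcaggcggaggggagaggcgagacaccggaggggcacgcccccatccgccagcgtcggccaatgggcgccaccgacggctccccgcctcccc
Plk3: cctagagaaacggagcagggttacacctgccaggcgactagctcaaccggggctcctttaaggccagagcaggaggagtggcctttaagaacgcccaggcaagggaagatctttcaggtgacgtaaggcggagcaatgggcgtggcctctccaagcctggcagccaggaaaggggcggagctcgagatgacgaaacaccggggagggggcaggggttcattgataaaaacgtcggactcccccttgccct
In Ppm1d the half-site begins 132 bases and the cyclic AMP response element 85 bases before the start. In Btg2 the cyclic AMP response element begins 166 bases before the start. The Plk3 window held none of the 4 motifs. The G and C content was 64.0% in Ppm1d, 73.2% in Btg2 and 60.0% in Plk3.

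Among the 8 genes of cell cycle and growth control, 4 were at least 1.5-fold from 0 Gy at 1 or more doses (18.3% of all named genes). The higher values were those of Btg2, Plk3 and Gadd45a. Btg2 (12227), an antiproliferative cofactor that promotes decay of messenger RNA and restrains entry into S phase, had log2 intensities of 7.96, 9.72, 8.03 and 8.61 in the order of dose. The 0.02 Gy array stood above the other 3, and the 0.1 Gy array lay next to 0 Gy. The fold over 0 Gy was 3.39, 1.05 and 1.57, the last a log2 difference of 0.04 against the mean of the remaining 3 arrays, and 0.872% of named genes had a larger absolute difference at 0.02 Gy.

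Plk3 (12795), a stress-responsive Polo-like kinase that can phosphorylate p53, had 4.34, 5.78, 5.01 and 5.17. It was the only gene of the 31 at least 1.5-fold higher than 0 Gy at all 3 doses, at 2.72-fold, 1.6-fold and 1.78-fold, where 0.977% of all named genes and 1.49% of those at or above the filter level were. Of the 31, 0 were lower at all 3 doses (1.51% and 2.02%). The 0 Gy value lies close to the filter level, so the size of these folds is uncertain, and against the mean of the remaining 3 arrays the log2 difference was -0.080 at 0.1 Gy and 0.12 at 0.5 Gy. Gadd45a (13197), which restrains the G2 to M transition and takes part in DNA repair and stress kinase signalling, had 5.44, 5.97, 6.12 and 6.02. All 3 irradiated arrays lay within 0.15 of each other and above 0 Gy, by 0.53, 0.68 and 0.58, of which only the second passes 1.5-fold (a log2 difference of 0.585); against the mean of the remaining 3 arrays it was 0.31.

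Plk2 (20620), a Polo-like kinase that acts in G1 and at the centrosome, had 8.16, 8.63, 7.64 and 7.51. It was above 0 Gy at 0.02 Gy by 0.47 and below it at 0.1 and 0.5 Gy, by -0.52 and -0.66, so the 2 Polo-like kinases lay on opposite sides of 0 Gy at the 2 higher doses. The other 4 genes of the group, Ccng1, Psrc1, Zmat3 and Ptp4a3, had differences from -0.55 to 0.36 over the 3 doses. Ccng1 (12450), the cyclin G gene that recruits a phosphatase to Mdm2 and is a sensitive p53 target, had 8.53, 8.89, 8.45 and 8.82. Psrc1, which encodes a microtubule-associated protein of the mitotic spindle, had its lowest value at 0.02 Gy, at -0.55, and 0.00 at 0.5 Gy. Zmat3, an RNA-binding target of p53, was equal to 0 Gy at 0.02 and 0.5 Gy and -0.28 at 0.1 Gy.

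**Figure D3:**
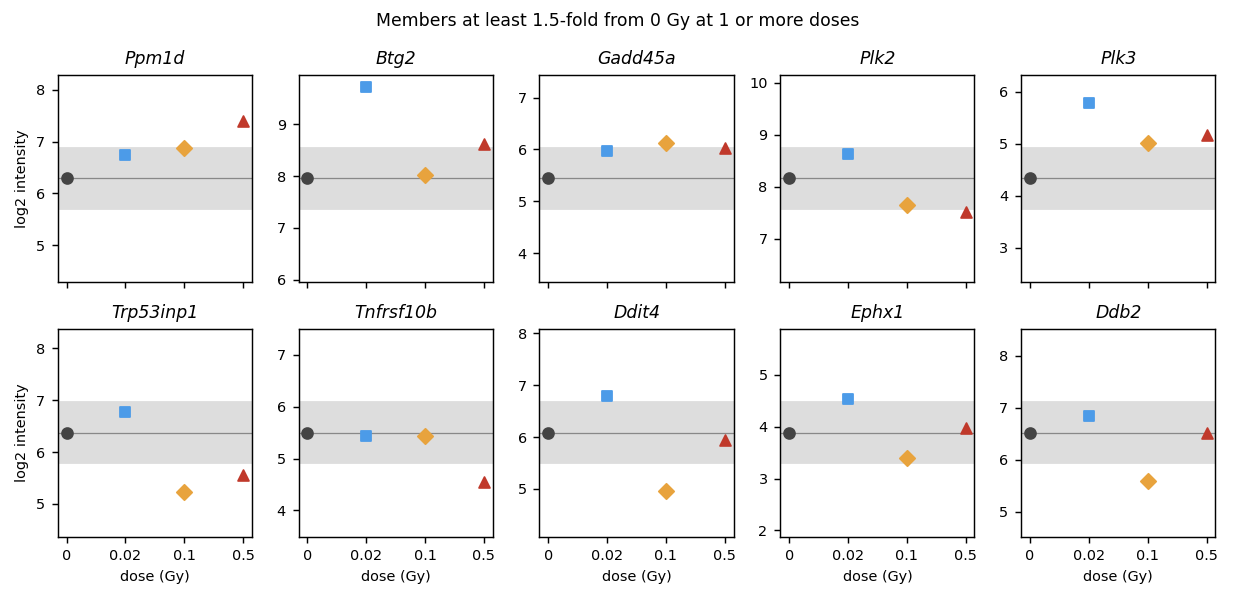
Deposited log2 intensity (y axis, each panel centred on its 0 Gy value and spanning 4 log2 units) against dose (x axis, evenly spaced categories) for the 10 genes at least 1.5-fold from 0 Gy at 1 or more doses; 1 array per dose, and the grey band is 1.5-fold either way. Plk3 is above the band at all 3 doses, Ppm1d is higher at each next dose, and Trp53inp1 lies above the 0 Gy line at 0.02 Gy and below the band at 0.1 and 0.5 Gy.

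Of the 9 cell death genes, 0 were at least 1.5-fold higher at any dose, where 4.01% to 4.58% of all named genes were at each dose. Trp53inp1 and Tnfrsf10b were lower, where 18.3% of all named genes were 1.5-fold apart in either direction at 1 or more doses. Trp53inp1 (60599), which promotes phosphorylation of p53 toward its death programme and takes part in autophagy, had log2 intensities of 6.37, 6.78, 5.24 and 5.56 in the order of dose. The 2 higher doses lay below the 2 lower ones, and the gene was 2.2-fold lower than 0 Gy at 0.1 Gy and 1.75-fold lower at 0.5 Gy. It was the only gene of the 31 at least 1.5-fold lower at more than 1 dose. Tnfrsf10b (21933), the death receptor for the ligand TRAIL, had 5.50, 5.43, 5.43 and 4.55. The 0.02 and 0.1 Gy arrays held the same value, and the 0.5 Gy array alone was low, 1.92-fold below 0 Gy.

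The other 7 cell death genes had differences between -0.33 and 0.32. Fas (14102), the death receptor of the TNF family, had 2.79, 3.11, 2.79 and 2.79, all below the filter level, as were the values of Eda2r, the receptor for ectodysplasin A2, at 3.10 to 3.30. Aen, an apoptosis-enhancing nuclease, had 4.85, 4.52, 5.08 and 4.85. Phlda3, an inhibitor of AKT signalling that p53 induces strongly after irradiation, differed from 0 Gy by 0.01, 0.00 and 0.00. Perp, a membrane protein of desmosomes and of cell death, differed by 0.02 at each dose, and Ei24, a protein of the endoplasmic reticulum, by -0.01, 0.08 and -0.06. Apaf1, the scaffold of the apoptosome, had 6.02 on 3 arrays and 5.95 at 0.1 Gy.

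In the group of 5 stress and metabolism genes, Ddit4 and Ephx1 were highest at 0.02 Gy and lowest at 0.1 Gy. Ddit4 (74747) encodes REDD1, an inhibitor of mTORC1 that responds to low oxygen, glucocorticoids and DNA damage, and had log2 intensities of 6.08, 6.79, 4.95 and 5.94 in the order of dose. It was 1.63-fold higher than 0 Gy at 0.02 Gy and 2.19-fold lower at 0.1 Gy, the only gene of the set past 1.5-fold in both directions, and the 0.5 Gy value lay next to 0 Gy. Ephx1 (13849), a microsomal epoxide hydrolase, had 3.88, 4.53, 3.39 and 3.97. Its 1.56-fold difference at 0.02 Gy rests on a 0 Gy value below the filter level.

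The sestrins, which detoxify peroxides and restrain mTORC1, lay on no common side of 0 Gy. Sesn1 (140742) had 7.15, 7.19, 6.77 and 6.93, and Sesn2 (230784) had 4.50, 3.95, 4.50 and 4.85, with a difference of -0.55 at 0.02 Gy and 0.34 at 0.5 Gy. Dcxr, a carbonyl and sugar reductase, had 6.15 at 0 Gy and 6.21 on each irradiated array.

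Of the 5 genes of DNA repair and nucleotide supply, Ddb2 alone passed 1.5-fold at 1 or more doses (18.3% of all named genes). Ddb2 (107986), the subunit that recognises ultraviolet lesions in nucleotide excision repair, had 6.52, 6.84, 5.60 and 6.52, with the 0.1 Gy array alone low, 1.89-fold below 0 Gy. Xpc (22591), the damage sensor of the same pathway, had 5.72, 5.95, 5.87 and 5.72. Both held at 0.5 Gy the value of the 0 Gy array. Rrm2b (382985), the ribonucleotide reductase subunit that supplies nucleotides outside S phase, had 5.70, 5.31, 6.01 and 6.14, with differences of -0.39, 0.31 and 0.43. Ercc5, an endonuclease of nucleotide excision repair, had 4.43, 4.37, 4.37 and 4.77, and Polk, a translesion polymerase, had 5.72 on 3 arrays and 5.58 at 0.5 Gy.

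**Figure D4:**
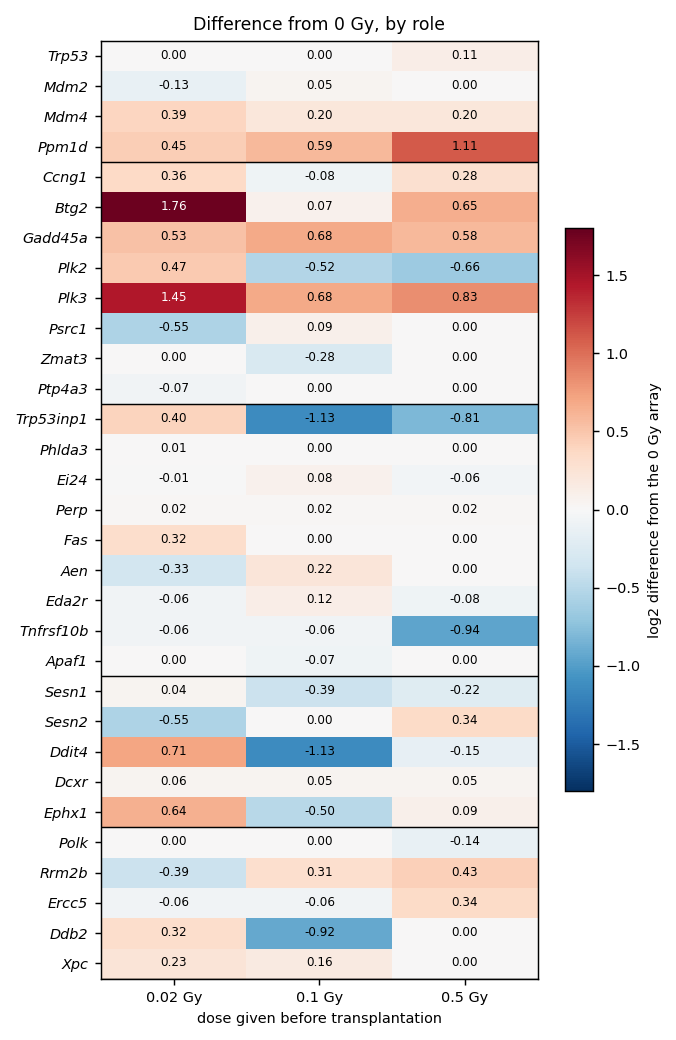
Log2 difference from the 0 Gy array (colour and printed value) of the 31 genes (rows, grouped by role) at each dose (columns). The warmest cells are Btg2 (1.76) and Plk3 (1.45) at 0.02 Gy, and the coldest are Trp53inp1 and Ddit4 at 0.1 Gy (both -1.13).

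The 0.02 Gy array held the highest of the 4 values, alone, in 14 of the 31 genes (45.2%), where it did so in 17.7% of all named genes and in 21.3% of those at or above the filter level. These 14 were Mdm4, Ccng1, Btg2, Plk2, Plk3, Trp53inp1, Phlda3, Fas, Sesn1, Ddit4, Dcxr, Ephx1, Ddb2 and Xpc, and in Phlda3 and Dcxr the margin was under 0.01. The 0 Gy array was alone the highest in 1 of the 31, Tnfrsf10b, against 20.0% of all named genes and 24.7% of those at or above the filter level. The 0.1 Gy array was so in 6 (20.4% and 19.8%) and the 0.5 Gy array in 5 (19.8% and 20.8%). The lowest value was at 0 Gy alone in 7 genes (18.5% of all named genes), at 0.02 Gy in 6 (22.6%), at 0.1 Gy in 9 (18%) and at 0.5 Gy in 5 (21.4%). No test of these shares was made, since 1 array stands for each dose and the set was chosen with earlier results of these data known.

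The irradiated arrays were then set against each other. From 0.02 to 0.1 Gy, 7 of the 31 were at least 1.5-fold lower (background 5.48%) and 2 higher (4.12%). The lower genes were Ddit4 at -1.83, Btg2 at -1.69, Trp53inp1 at -1.54, Ddb2 at -1.24, Ephx1 at -1.14, Plk2 at -0.996 and Plk3 at -0.77, and the higher ones were Rrm2b at 0.70 and Psrc1 at 0.64. From 0.02 to 0.5 Gy, 6 were lower (5.71%) and 3 higher (4.14%). Trp53inp1 was at -1.21, Plk2 at -1.13 and Btg2 at -1.11, while Sesn2 was at 0.90, Rrm2b at 0.82 and Ppm1d at 0.66. From 0.1 to 0.5 Gy, 2 genes were higher (4.09%), Ddit4 at 0.98 and Ddb2 at 0.92, and 1 was lower (4.41%), Tnfrsf10b at -0.88. The first 2 of these comparisons share the 0.02 Gy array. Among named genes at or above the filter level the background in the same order was 8.13%, 8.56% and 6.47% lower and 5.88%, 5.89% and 5.91% higher.

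Exact ties bear on these values. In 17 of the 31 genes at least 2 of the 4 arrays held the same value, as in 57.4% of all named genes, and in 0 of the 31 were all 4 the same (6.77% of all named genes). At 0.02, 0.1 and 0.5 Gy, 4, 6 and 10 of the 31 equalled the 0 Gy value, 17, 14 and 13 were above it and 10, 11 and 8 below it. Medians of 0.00 therefore sit on tied values.

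Other genes of the pathway were taken from lists that are not part of the set. Like the later lists, they were chosen with earlier results of these data known, so their counts are no independent test. For these and the later lists, the background at 0.02, 0.1 and 0.5 Gy was 4.58%, 4.01% and 4.36% of all named genes higher. For lower genes it was 4.29%, 4.97% and 5.4%. Among named genes at or above the filter level it was larger, at 6.39%, 5.5% and 5.92% higher and 6.22%, 7.5% and 8.27% lower. Of 14 upstream sensors and kinases measured, 0 were at least 1.5-fold higher at any dose, and 1, 1 and 0 were lower at 0.02, 0.1 and 0.5 Gy. These were the checkpoint kinase gene Chek1, at -1.02 at 0.02 Gy, and Hus1, a subunit of the checkpoint clamp, at -0.62 at 0.1 Gy. Of 20 cofactors and modifiers of p53, 1, 0 and 2 were higher and 1, 0 and 2 lower. The histone deacetylase gene Hdac1 was at -0.74 at 0.02 Gy, and Setd7 and Kmt5a, methyltransferases that can act on p53, were at -0.87 and 0.66 at 0.5 Gy. Sirt1, a deacetylase of p53, was at -0.62 at 0.5 Gy. Rpl5, a ribosomal protein that can sequester Mdm2, had levels of only 5.09, 5.73, 5.44 and 5.69 in the order of dose. Its differences from 0 Gy were 0.64, 0.35 and 0.59. Hipk2, a kinase of p53, had 7.67 at 0 Gy and 8.19 on each irradiated array, a difference of 0.52. It was called in limma's irradiated comparison, but its irradiated values were tied. The SE of 0.012 therefore holds no measured spread between arrays, and Fdxr and Perp, tied in the same way, had the same SE. The Hipk2 call was lost under other normalizations, where limma called 0 genes in all.

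Of 22 other p53 targets, 2, 4 and 3 were at least 1.5-fold higher and 0, 1 and 0 lower at 0.02, 0.1 and 0.5 Gy, with medians of -0.03, 0.00 and 0.03. Cdkn1a, which encodes the cell cycle inhibitor p21, had 7.87, 9.68, 8.82 and 9.52, so its values at 0.02 and 0.5 Gy were the higher ones, as in Btg2 and Plk3. Tob1, an antiproliferative relative of Btg2, had 5.64, 6.28, 6.55 and 6.30, above 0 Gy by 0.64, 0.91 and 0.66. Gdf15, a secreted stress cytokine, had 4.83, 4.76, 6.17 and 5.83. Gtse1, a regulator of p53 in G2, was at 0.65 and Ndn, the growth suppressor necdin, at -0.72 at 0.1 Gy. The pro-apoptotic genes Bax, Bbc3 and Pmaip1 had differences of -0.11 to 0.31 over the 3 doses, and those of Bid were -0.55, -0.44 and -0.10. Bbc3, at 3.62 to 4.03, and Pmaip1, at 3.41 to 3.67, lay below the filter level on all arrays, so their small differences say little.

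**Figure D5:**
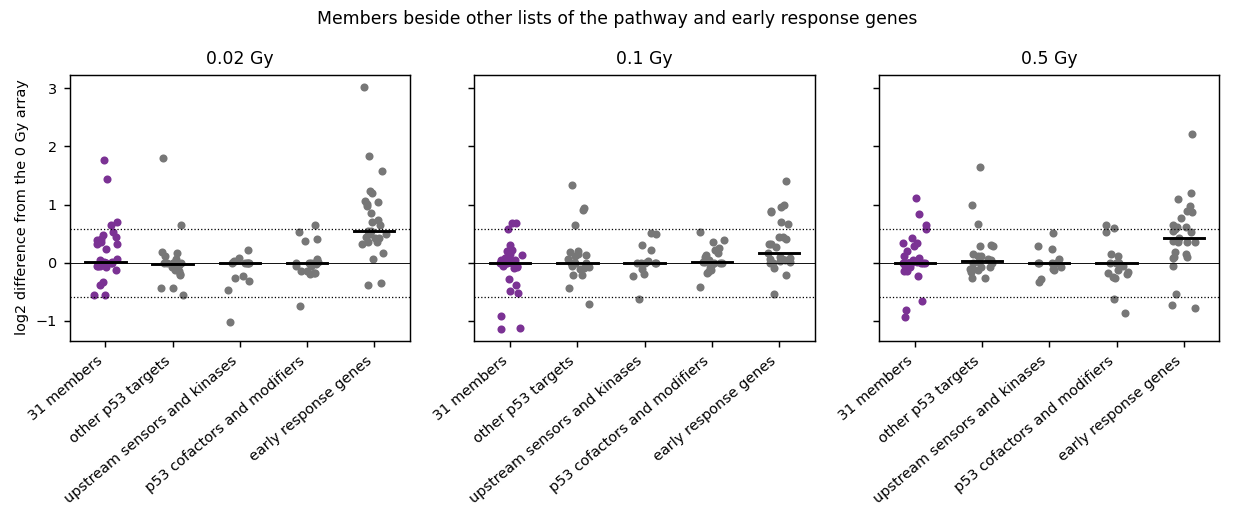
Log2 difference from the 0 Gy array (y axis) for the 31 genes and 4 other lists (x axis) at each dose (panels); 1 point per gene, black bar the list median, dotted lines 1.5-fold either way, horizontal scatter random. The medians of the 31 genes lie at 0.02, 0.00 and 0.00, and those of the early response genes at 0.54, 0.16 and 0.42.

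Several genes of the set, Btg2, Plk2, Plk3 and Gadd45a among them, are also known to respond within minutes to hours to mitogens and stress. The 27 early response genes, such as Fos, Jun and Socs3, had a median difference of 0.54 at 0.02 Gy, 0.16 at 0.1 Gy and 0.42 at 0.5 Gy, and 13, 7 and 10 of them were at least 1.5-fold higher and 0, 0 and 2 lower. Summed over the list, linear intensity was 15590, 22180, 19420 and 21630 in the order of dose. Both this sum and the values of Btg2 and Plk3 were lowest at 0 Gy and highest at 0.02 Gy. Gadd45a was lowest at 0 Gy but highest at 0.1 Gy, and Plk2 was highest at 0.02 Gy but lowest at 0.5 Gy. The part of early response in the values of the set was not tested, and this list too was chosen with earlier results of these data known.

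The sort label was checked against 14 long-term stem cell genes, all of which had means above the filter level, and 5 were at least 1.5-fold higher at 0.02 Gy, 3 lower at 0.1 Gy, and 1 higher and 1 lower at 0.5 Gy. Their summed linear intensity was highest at 0.02 Gy, at 9131, against 6246 to 6946 on the other arrays. Of 13 B and plasma cell genes, 6 were higher at 0.02 Gy, 1 higher and 1 lower at 0.1 Gy and 2 lower at 0.5 Gy, with sums from 730.4 at 0.5 Gy to 2839 at 0.02 Gy. In the order of dose, Jchain had 9.75, 10.69, 8.46 and 7.32, Cd79b 7.58, 8.62, 7.01 and 6.79, and Cd79a 3.80, 6.61, 4.40 and 3.30, while Ms4a1 lay below the filter level on all arrays, at 2.23 to 2.32. Of 14 neutrophil and granulocyte progenitor genes, 3, 7 and 6 were higher and 1, 0 and 0 lower at 0.02, 0.1 and 0.5 Gy. Their sums had 403.9 at 0 Gy and 1292 at 0.1 Gy as the extremes. Of 11 erythroid genes 2, 5 and 7 were higher and 1, 0 and 0 lower, with sums from 2211 at 0.02 Gy to 4067 at 0.5 Gy. The lower genes were S100a8 at -1.08 and Car1 at -0.83. Sums of the 13 monocyte, macrophage and dendritic genes ran from 400.8 at 0.1 Gy to 1291 at 0.02 Gy. In the order of dose, 2, 0 and 0 were higher and 0, 2 and 1 lower. Cd74 was the most intense on each array, at 7.87 to 9.94, and a sum rests mainly on such genes. The 12 T and NK cell genes had sums from 537.7 at 0.02 Gy to 1212 at 0.5 Gy, with 0, 0 and 2 higher and 1 lower at each dose. Nkg7 was their most intense, at 8.38 to 9.92, while Cd3e, Cd3d, Cd3g, Cd4 and Cd8a lay below the filter level throughout. For the 10 megakaryocyte and platelet genes sums ran from 4546 at 0.1 Gy to 5391 at 0.02 Gy, with 1, 0 and 0 higher and 1, 3 and 3 lower. The part of these lists in the values of the set was not tested. Medians over all probe sets lay between 4.01 and 4.07 on the 4 arrays.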

How the data were processed

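The authors labelled cDNA with biotin for Affymetrix whole-transcript arrays, per the labels. They deposited log2 intensities, with 1 probe set for each Entrez gene; the base 2 is inferred from a range of 1.22 to 13.0. Partek is named in the submitters' processing notes without a role, and how background and normalization were handled is not given in the sources. Rows were named through the Entrez ID and RefSeq genes (23740 of 25206; 555 of them, Trp53 included, are not in the platform table), and values were used as deposited. The 31 genes and all lists were chosen with earlier results of these data known. Each array was compared by log2 difference. Genes at least 1.5-fold from 0 Gy are given on all arrays; others by role. Linear models (limma 3.58.1, R 4.3.3) with moderated variances, 2 residual degrees of freedom and Benjamini-Hochberg adjustment to 0.05 were fitted over all named genes. The models were also run on simulated, independent normal values. Those hold no exact ties, so that run does not cover the tied genes. Alternatives were 3 normalizations, a filter on low values, another threshold, another control, an intensity trend, dose rank and leaving out each irradiated array.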

Additional observations from a re-analysis of the deposited data

How the results depend on the processing

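Set against the mean of the remaining 3 arrays instead of 0 Gy, the 0.02 Gy array had 7 genes of the set at least 1.5-fold higher and 2 lower. By that control the 0.1 Gy array had 0 higher and 5 lower, and the 0.5 Gy array 1 higher and 2 lower. At a 2-fold threshold 2, 0 and 1 were higher and 0, 2 and 0 were lower at 0.02, 0.1 and 0.5 Gy. Median centring gave 2 lower genes at 0.02 Gy, where the deposited values gave 0. The medians of the set moved by less than 0.1 under each alternative. At 0.02 Gy the median was -0.03 after median centring, against 0.02. Leaving out each irradiated array in turn gave 0 genes of the set called in both limma fits, as did the other settings. Over all named genes the 209 calls of the irradiated comparison became 314 with an intensity trend and 0 after the filter, quantile normalization, median centring, cyclic loess or leaving out any irradiated array. Differences of single genes, an addition made after seeing the data, were recomputed under 4 settings. Under the 3 normalizations each stayed past 1.5-fold except Ephx1 at 0.02 Gy after quantile normalization, at 0.58. Against the mean of the remaining 3 arrays 10 of 16 did. Ppm1d at 0.1 Gy moved to 0.07, Gadd45a at 0.1 Gy to 0.31, Btg2 at 0.5 Gy to 0.04, Plk3 at 0.5 Gy to 0.12 and Trp53inp1 at 0.5 Gy to -0.56, and Plk3 at 0.1 Gy changed sign, to -0.080. Counting depth has no counterpart on arrays, and 4 genes of the set had a mean below the filter level, which limits the size of their differences.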
